A study of Homo sapiens with 20 samples.

Results

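The 4 HOX clusters were examined as 4 windows of the hg19 genome, each running from the first to the last HOX gene of a cluster with 10 kb added on either side, and every peak of 16 deposited ChIP-seq peak lists whose midpoint lay in a window was taken. The HOX genes were taken by name from the GENCODE annotation, and 38 of them were used (10 in HOXA, 10 in HOXB, 9 in HOXC and 9 in HOXD) out of 20136 protein-coding genes. HOXA lay at chr7:27129973-27249710 (119.7 kb), HOXB at chr17:46595888-46816112 (220.2 kb), HOXC at chr12:54322615-54459814 (137.2 kb) and HOXD at chr2:176947449-177065635 (118.2 kb). HOXA and HOXB were transcribed from the minus strand and HOXC and HOXD from the plus strand. The study asked what happens to cohesin and CTCF binding when melanoma cells lose STAG2. All samples came from M14, a human melanoma line carrying a doxycycline-inducible shRNA against STAG2 and kept under puromycin. Cells grown without doxycycline are called WT here and cells grown with it STAG2-KD, so that the WT cells carried the same shRNA construct. The labels of replicate 1 give 5 days of culture with or without doxycycline. Chromatin was immunoprecipitated with antibodies against CTCF, SMC1A, STAG1 and STAG2, which gave 2 lists per antibody and condition, and 4 input samples brought the series to 20 samples. The amount of STAG2 left after the knockdown is not measured by peak lists.

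HOX genes encode homeodomain transcription factors that set position along the body axis, and their order along each cluster matches the order in which they are switched on in the embryo, from the HOX1 end to the HOX13 end. CTCF is a zinc finger protein that binds a directional DNA motif, and cohesin is a ring (SMC1A is one of its structural subunits) that carries either STAG1 or STAG2 and accumulates where CTCF is bound. CTCF sites inside the HOX clusters are known as boundaries between active and silent HOX genes in developing limb and trunk.

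CTCF sites present in all 4 CTCF lists were searched for the CTCF motif with a 21 bp matrix built from strong CTCF summits outside the clusters. The sequences below are the matches with the highest scores in each cluster (at most 5 per cluster), shown because the strand of the motif is the part of the order of sites that peak positions alone do not give. Each is 40 bases of hg19 on the motif strand, read 5′ to 3′, capitals mark the 21 bp matched to the matrix, and "same" or "opposite" compares the motif strand with the direction of HOX transcription.
HOXA, 0.415 kb downstream of the HOXA4 start (chr7:27169829-27169868, minus strand, same): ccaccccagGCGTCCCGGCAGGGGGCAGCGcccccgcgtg
HOXA, 0.219 kb upstream of the HOXA5 start (chr7:27183521-27183560, minus strand, same): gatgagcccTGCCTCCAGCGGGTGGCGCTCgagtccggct
HOXA, 4.38 kb upstream of the HOXA7 start (chr7:27200743-27200782, minus strand, same): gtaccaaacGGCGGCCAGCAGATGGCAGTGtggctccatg
HOXA, 1.16 kb upstream of the HOXA13 start (chr7:27240869-27240908, plus strand, opposite): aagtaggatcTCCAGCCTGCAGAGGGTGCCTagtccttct
HOXB, 5.4 kb upstream of the HOXB2 start (chr17:46627877-46627916, plus strand, opposite): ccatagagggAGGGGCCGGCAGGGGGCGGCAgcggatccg
HOXB, 3.48 kb upstream of the HOXB8 start (chr17:46696094-46696133, minus strand, same): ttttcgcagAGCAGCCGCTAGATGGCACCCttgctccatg
HOXB, 10.3 kb upstream of the HOXB9 start (chr17:46713975-46714014, plus strand, opposite): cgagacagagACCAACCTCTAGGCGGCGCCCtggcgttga
HOXB, 37.1 kb upstream of the HOXB9 start (chr17:46740669-46740708, plus strand, opposite): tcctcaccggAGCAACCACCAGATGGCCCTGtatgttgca
HOXB, 45.5 kb upstream of the HOXB9 start (chr17:46749154-46749193, plus strand, opposite): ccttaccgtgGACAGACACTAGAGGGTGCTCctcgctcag
HOXC, 5.72 kb upstream of the HOXC12 start (chr12:54342879-54342918, minus strand, opposite): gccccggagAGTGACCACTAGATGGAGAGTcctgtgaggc
HOXC, 6.59 kb downstream of the HOXC12 start (chr12:54355325-54355364, minus strand, opposite): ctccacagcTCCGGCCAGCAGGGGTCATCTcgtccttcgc
HOXC, 4.17 kb downstream of the HOXC9 start (chr12:54397983-54398022, minus strand, opposite): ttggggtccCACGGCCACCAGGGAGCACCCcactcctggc
HOXC, 0.08 kb downstream of the HOXC5 start (chr12:54426511-54426550, plus strand, same): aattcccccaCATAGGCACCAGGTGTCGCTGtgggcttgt
HOXD, 2.2 kb upstream of the HOXD12 start (chr2:176962473-176962512, minus strand, opposite): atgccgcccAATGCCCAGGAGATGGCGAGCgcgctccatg
HOXD, 2.57 kb upstream of the HOXD8 start (chr2:176991918-176991957, plus strand, same): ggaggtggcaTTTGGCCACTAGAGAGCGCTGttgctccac

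A match was found at 18 of the 56 CTCF sites (32.1%), against 0.937% of 5017 windows of the searched length in the HOX clusters outside CTCF peaks. Among 12225 summits of the WT CTCF list of replicate 2 outside the windows, 32.4% had a match. Those summits were taken whether or not the other CTCF lists had a peak, so the shares are of unlike sets. The score required was exceeded by 1% of windows placed 5 kb from summits. Of the 47 HOX sites with a CTCF peak in 1 to 3 lists, 2 had a match. Of the 18 matches, 12 pointed against the direction of HOX transcription (66.7%, exact Clopper-Pearson 95% interval 41.0 to 86.7%, which covers counting error only) and 6 pointed along it. The clusters differed in composition: 7 of 8 matches in HOXB and 3 of 4 in HOXC were opposite, 3 of 4 in HOXA were the same, and HOXD had 1 of each. In HOXA, HOXC and HOXD the opposite matches all lay nearer the HOX13 end than the matches in the same direction, whereas in HOXB the only match in the same direction, upstream of HOXB8, lay between opposite ones. This order rests on 4 matches in HOXA, 4 in HOXC and 2 in HOXD, and it was not tested. The sites with the highest CTCF percentile in those clusters, at HOXA6, upstream of HOXC8 and in a HOXD3 intron, had no match and so no direction. With a matrix rebuilt from its own best matches, 27 of the 56 sites matched, 19 of them opposite, and all 18 earlier matches kept their strand. Under that matrix HOXB had 9 opposite and 1 same, HOXA had 3 and 3, HOXC had 5 and 3, and HOXD had 2 and 1, and the separation of the directions held in HOXD only. The majority of opposite matches was smaller with a search within 100 bp of the summit, where 8 of 15 matches were opposite and 7 the same (HOXA 1 and 4, HOXB 4 and 1, HOXC 3 and 0, HOXD 0 and 2). In that search HOXC and HOXD had matches in 1 direction only, so the order of directions could not be compared there.

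The 16 lists held 58521 to 150308 peaks on the chromosomes used. The lists of replicate 1 (58521 to 91582 peaks) had been called at a −log10 q of 2 and those of replicate 2 (98453 to 150308 peaks) at a −log10 p of 2, so comparisons of conditions were made within a replicate. Lists carry no read totals, so no counting interval can be given. The background level that the fold enrichment and p columns imply was 0.988 to 1.08 times as high in a STAG2-KD list as in the WT list of its replicate. A peak's strength is given below as its fold enrichment over the local background and as a percentile, its rank by fold enrichment in its own list with 100 for the strongest. Peaks were 3.36 to 5.94 times as dense in the HOX windows as in the whole genome of the same list. Each condition and antibody has 2 libraries, and nothing in the labels says that they came from separate cultures.

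Peaks of the 16 lists merged into 140 sites, of which 30 lay in HOXA, 42 in HOXB, 45 in HOXC and 23 in HOXD. All 16 lists had a peak at 33 of them (8, 8, 9 and 8 in the 4 clusters), while 52 were found in 1 list only. Among the 33, 13 lay within 1 kb of an annotated HOX transcript start, 2 in exons, 7 in introns and 11 between the listed genes. CTCF was present in all 4 of its lists at 52 merged sites, and cohesin peaks without any CTCF peak stood at 57 sites. Of these 57, 48 had SMC1A alone, and 40 of those were in 1 list, so the CTCF-free cohesin sites were mostly weak and seen in 1 list. At 3 merged sites CTCF was present in all 4 lists and no cohesin subunit in any: the HOXA10 promoter (chr7:27219230-27219775), a HOXB3 exon (chr17:46627603-46628141) and a site 10.3 kb upstream of HOXB9 (chr17:46713557-46714458). The CTCF fold enrichment at the HOXA10 promoter was 10.5 and 9.42 in WT and 8.16 and 7.33 in STAG2-KD (replicates 1 and 2). At the site upstream of HOXB9 it was 18.5 and 15.1 in WT and 11.2 and 11.1 in STAG2-KD, so these were not the weakest CTCF sites of the clusters. The site in the HOXB3 exon was weak, with 5.99 and 4.78 in WT and 4.42 and 4.66 in STAG2-KD.

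In HOXA, read from HOXA13 to HOXA2, the first CTCF sites surrounded HOXA13, which specifies the distal limb and the genital tubercle. A site in the body of HOXA13 (chr7:27235381-27236604) had CTCF fold enrichments of 54.5 and 26.5 in WT and 58.3 and 41.7 in STAG2-KD. A stretch of 33.5 kb followed without any site in all 16 lists. It covered HOXA11, HOXA10 and HOXA9, and 16 kb of it (chr7:27201839-27217801) had no peak in any list. Its only CTCF site was the one at the HOXA10 promoter described above, at percentiles of 34.8 to 56.9. Past the stretch the CTCF sites were dense, at 4.38 kb upstream of HOXA7 (chr7:27199940-27201398), at HOXA6 and an alternative HOXA3 start (chr7:27189798-27191394), at HOXA5, in a HOXA3 intron and at HOXA4. The site at HOXA6 was the strongest CTCF site of the cluster in 3 of the 4 CTCF lists, with 90.1 and 52.7 in WT and 94.6 and 44.4 in STAG2-KD. The site upstream of HOXA7 had 53.2 and 41.1 in WT and 67.9 and 50.6 in STAG2-KD, at percentiles of 80.2 to 96.7, and was the strongest in STAG2-KD of replicate 2. HOXA4 and HOXA5, which pattern the neck and chest, had CTCF within 1 kb of their starts at percentiles of 66.4 to 83.8. From there 32.1 kb without a site in all 16 lists ran to the last CTCF site beyond HOXA2, a weak one at percentiles of 12.1 to 47.1.

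HOXB differed in that its strongest CTCF site in the WT lists stood far from any HOX gene. In the wide interval between HOXB13, known from prostate and hindgut, and HOXB9, CTCF had fold enrichments of 114.0 and 64.6 in WT and 97.0 and 48.9 in STAG2-KD at chr17:46755129-46756873, which is 50.1 kb from the HOXB13 start. In STAG2-KD another HOXB site had a higher value in each list, with 97.7 in a HOXB7 intron (replicate 1) and 56.9 in a HOXB3 intron (replicate 2). A pair of further sites with opposite motifs, 45.5 and 37.1 kb upstream of HOXB9, followed it. On its other side 43.6 kb (chr17:46756874-46800438) had no peak of any antibody, and a strong site beside HOXB13 (67.0 and 50.7 in WT, 73.5 and 47.2 in STAG2-KD) closed that gap. Between HOXB9 and HOXB3 the strong sites were upstream of HOXB8 in a HOXB7 intron (chr17:46695537-46696723), at HOXB8, at HOXB6 (chr17:46679340-46682597) and in a HOXB3 intron (chr17:46661852-46663922). The site at HOXB6 had 94.2 in WT against 67.6 in STAG2-KD (replicate 1) and 50.6 against 27.2 (replicate 2), or percentiles of 96.5 against 87.6 and 96.1 against 77.1. The number of fragments at its summit, the pileup, was not lower (193 and 200 in WT, 210 and 202 in STAG2-KD), and the local background that the fold enrichment is taken over was 2.00 and 2.18 times its WT level. The site in the HOXB3 intron kept a percentile of 93.7 or more in all 4 lists. The HOXB1 to HOXB3 end, with the genes known from the hindbrain, had no site in all 16 lists over 63.0 kb. CTCF was present there in all 4 lists at 5 sites: at HOXB2 (43.7 to 67.5), in a HOXB3 intron (58.2 to 75.2), 7.85 kb downstream of HOXB1 (59.7 to 68.3), at the HOXB4 promoter (22.7 to 52.6) and in the HOXB3 exon described above (7.84 to 35.4), all as percentiles.

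**Figure D1:**
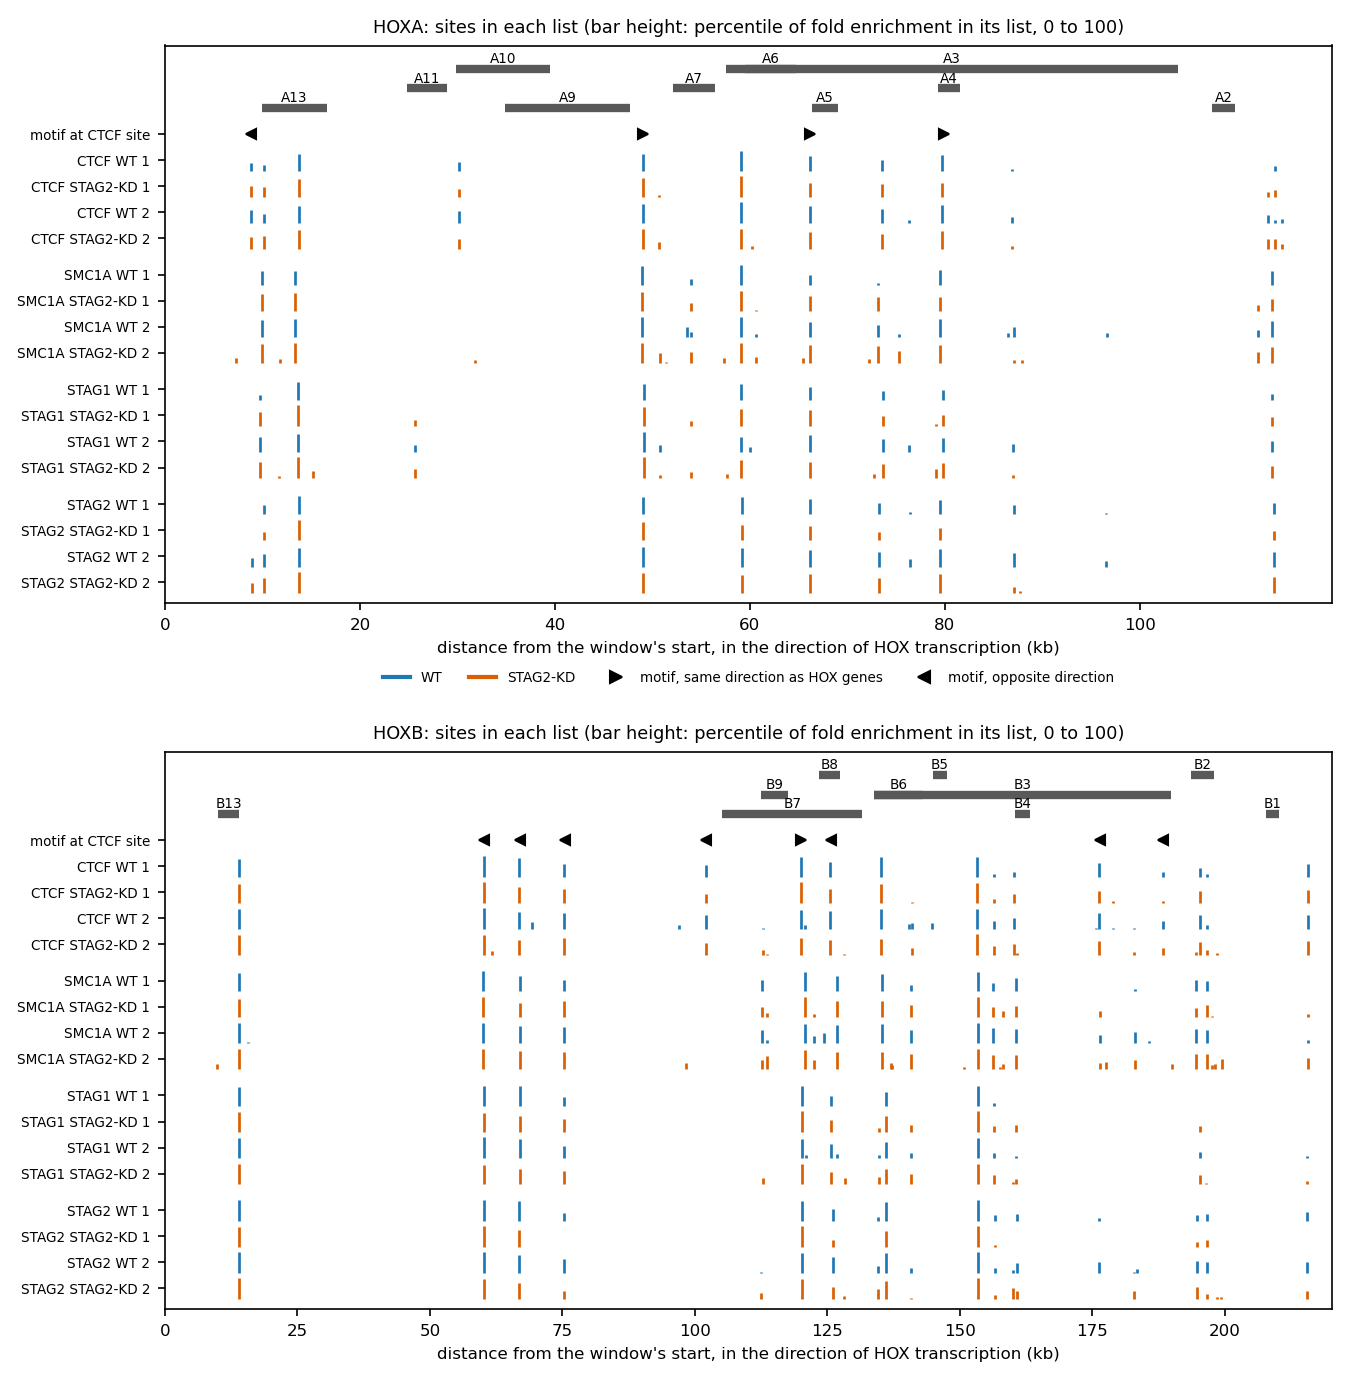
Sites of each of the 16 lists along HOXA and HOXB, plotted against the distance from the window's start in the direction of HOX transcription (kb). Bar height is the percentile of fold enrichment in the list (0 to 100), blue is WT and orange STAG2-KD, arrowheads give the direction of the 4 and 8 CTCF motif matches, and grey bars are genes. Strong sites stand at one place in all lists, and the interval between HOXB13 and the HOXB site 50.1 kb from its start is empty over 43.6 kb.

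HOXC had the most CTCF sites in all 4 lists, 19 against 10 in HOXA, 15 in HOXB and 12 in HOXD. Going from HOXC13, known for its part in hair and nail, to HOXC4, the strong sites lay at HOXC10 (chr12:54378040-54380554), 3.21 kb upstream of HOXC8 (chr12:54398654-54400472) and at HOXC5 (chr12:54425977-54427852). CTCF at HOXC10 had 79.1 and 48.4 in WT and 82.6 and 36.9 in STAG2-KD. Upstream of HOXC8 it had 90 and 51.3 in WT and 54.2 and 39.1 in STAG2-KD, the lower values being those of STAG2-KD in both replicates. The summit pileup there, which together with the local background makes up the fold enrichment, was not lower, at 183 and 192 in WT and 197 and 199 in STAG2-KD, while the background rose from 1.04 to 2.65 and from 2.76 to 4.11. At HOXC5 the values were 80.3 and 43.8 in WT and 66.6 and 41.1 in STAG2-KD. The other 16 sites were weaker, and 5 of them lay between the site upstream of HOXC8 and HOXC5, where CTCF peaks were 0.16 kb downstream of the HOXC8 start and at 4.32 and 8.88 kb from it, and then 6.7 and 3.76 kb upstream of HOXC6. Beyond HOXC5 a stretch of 31.4 kb, which holds the main HOXC4 start, had no site in all 16 lists.

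In HOXD the strong CTCF sites ran from upstream of HOXD13 to a HOXD3 intron 10.8 kb upstream of HOXD4, so the HOXD4 start and the main HOXD3 start lay beyond them. HOXD13, HOXD12 and HOXD11 shape the digits and forearm. CTCF stood 4.25 kb upstream of HOXD13 (chr2:176952390-176954001) with 91.8 and 60.7 in WT and 95.4 and 35.0 in STAG2-KD. Between HOXD13 and HOXD12 (chr2:176961626-176963024) it had 111.0 and 53.7 in WT and 97.6 and 49.2 in STAG2-KD. In a HOXD3 intron (chr2:177004751-177006132) it had 98.1 and 59.9 in WT and 94.1 and 67.3 in STAG2-KD, at a percentile of 97.3 or more in every CTCF list. From HOXD10 to the first HOXD3 start 6 further sites lay between them, at percentiles of 33.2 to 96.9, the strongest 2.57 kb upstream of HOXD8. After the HOXD3 site, stretches of 23.9 and 21.5 kb without a peak in any list led to HOXD1, and 59.2 kb had no site in all 16 lists. HOXD1 itself had a weak CTCF peak over its start, at percentiles of 7.48 to 34.3.

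**Figure D2:**
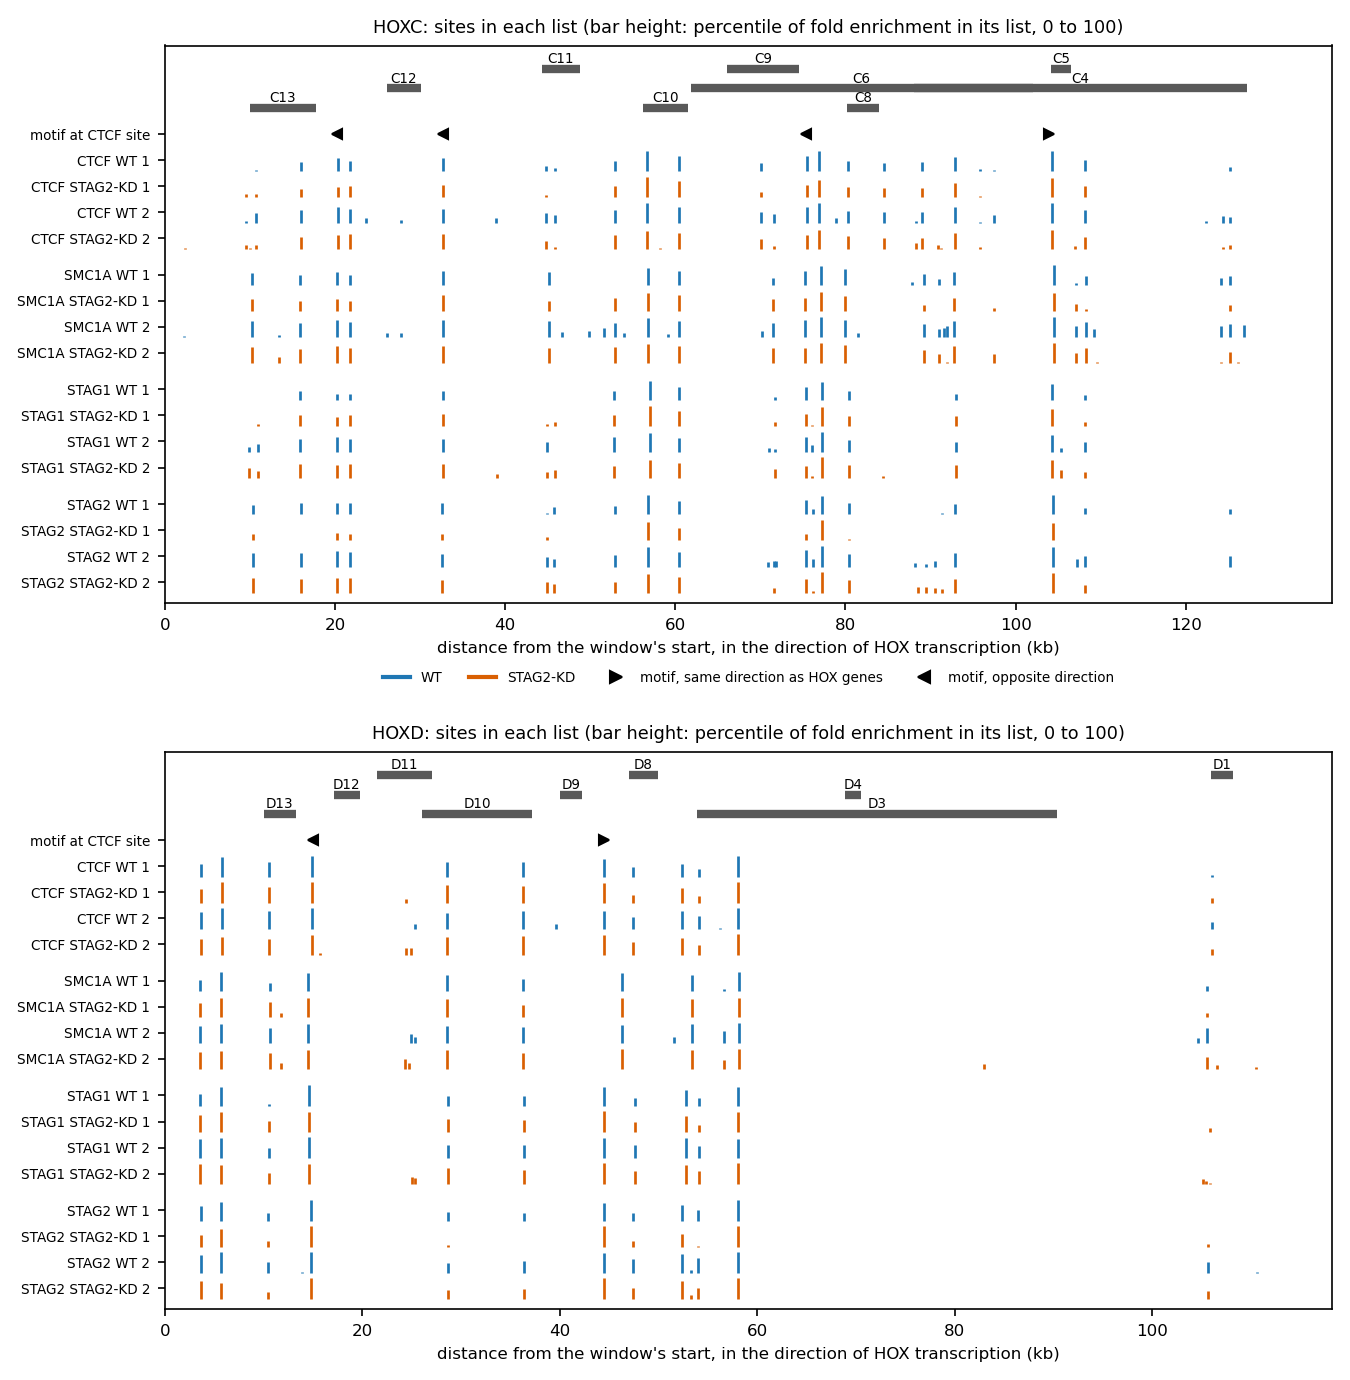
Sites of each of the 16 lists along HOXC and HOXD, plotted against the distance from the window's start in the direction of HOX transcription (kb). Bar height is the percentile of fold enrichment in the list (0 to 100), blue is WT and orange STAG2-KD, arrowheads give the direction of the 4 and 2 CTCF motif matches, and grey bars are genes. HOXC sites are spread along the cluster, whereas the HOXD sites end at HOXD3 and resume at HOXD1.

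Promoters, taken as 1 kb on either side of any annotated transcript start, carried a peak in at least 1 list for 33 of 38 HOX genes. All 16 lists had a peak at 12 promoters (31.6%, against 33.0% of all 20136 genes): HOXA4, HOXA5, HOXA6, HOXA13, HOXB3, HOXB8, HOXC5, HOXC8, HOXC10, HOXD3, HOXD8 and HOXD13. No list had one at HOXA2, HOXA9, HOXB1, HOXD4 and HOXD12 (13.2%, against 20%). With only the MANE Select start of each gene, a count not made over all genes, 8 promoters had all 16 lists and 11 had none. HOXA6, HOXB3, HOXB8 and HOXD3 are covered in all 16 lists only through alternative starts. SMC1A was present in all 4 of its lists at 23 promoters (60.5%, against 56.7%), CTCF at 21 (55.3%, against 52.1%), STAG2 at 15 (39.5%, against 47.1%) and STAG1 at 14 (36.8%, against 41.2%), so HOX promoters resembled other promoters in this measure. A few had a partial set. HOXA10, a regulator of uterus and blood cell development, had CTCF in all 4 lists and nothing else. HOXA7 had SMC1A in all 4 lists and STAG1 in the 2 STAG2-KD lists, with no CTCF and no STAG2. HOXA11 had STAG1 in 3 lists at fold enrichments of 3.36 to 5.02 and no other antibody. HOXB9 and HOXC9 had SMC1A in all 4 lists, and CTCF and STAG2 each in the 2 lists of replicate 2 only. STAG1 was in all 4 lists at HOXC9 and in 1 at HOXB9. The number of HOX promoters with a STAG1 peak was 15 (WT) and 23 (STAG2-KD) in the first replicate, and 24 and 28 in the second. As shares these were 39.5% and 60.5%, then 63.2% and 73.7%, against 43.0% and 55.7%, then 63.2% and 64.5% of all genes, so the share rose in both replicates in the HOX clusters and over all genes. The number for STAG2 was 19 and 16, then 24 and 24, for CTCF 21 and 22, then 28 and 27, and for SMC1A 24 and 24, then 28 and 27. As shares, STAG2 had 50.0% and 42.1%, then 63.2% and 63.2%, against 55.1% and 52.0%, then 69.2% and 68.3% of all genes. CTCF had 55.3% and 57.9%, then 73.7% and 71.1%, against 56.6% and 57.2%, then 68.2% and 66.7%. SMC1A had 63.2% and 63.2%, then 73.7% and 71.1%, against 60.3% and 63.6%, then 72.6% and 73.6%.

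**Figure D3:**
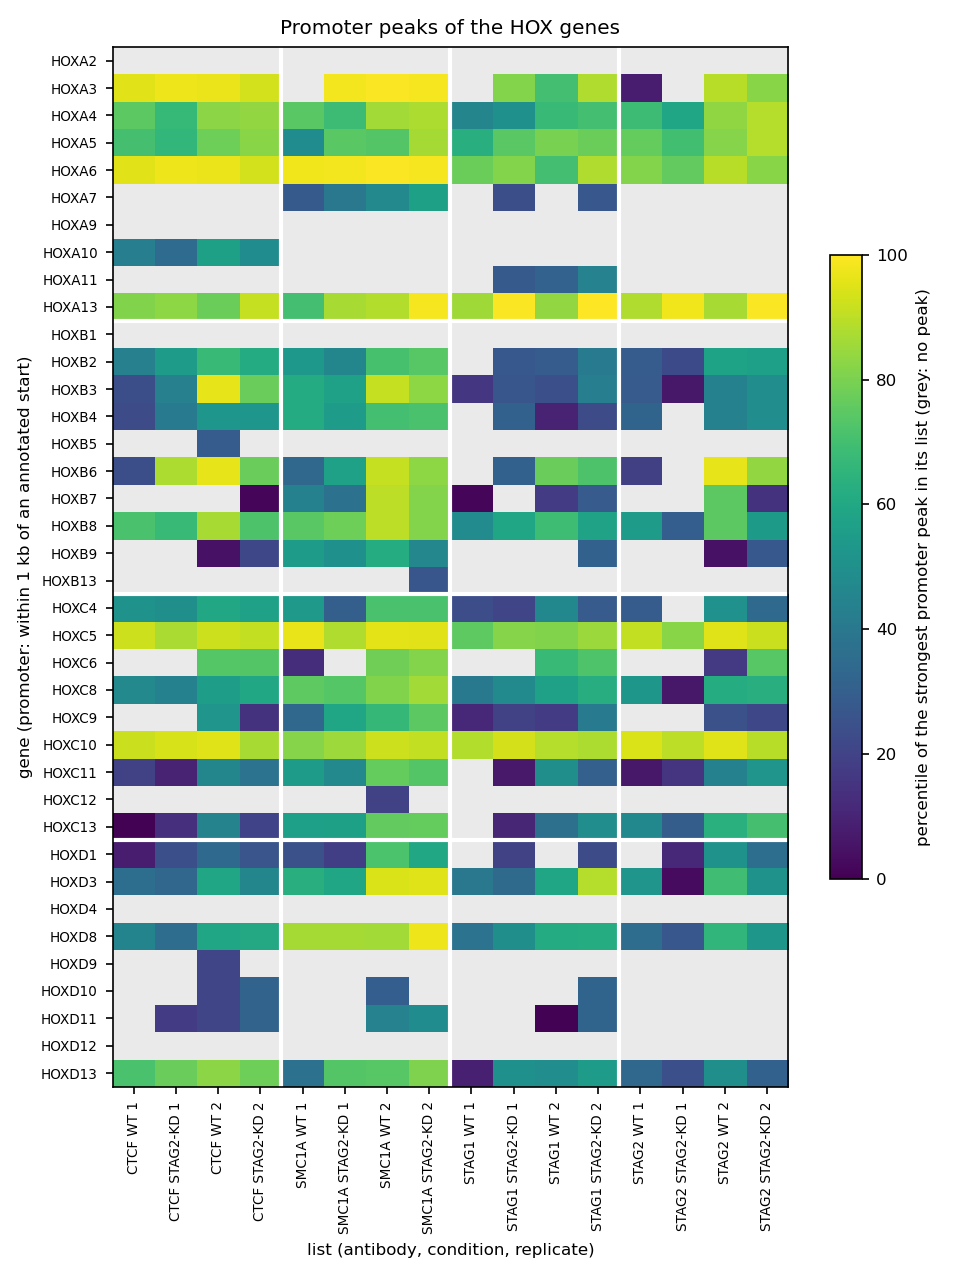
Strongest peak within 1 kb of an annotated start for each of the 38 HOX genes (rows) in each of the 16 lists (columns), coloured by its percentile of fold enrichment in that list, with grey where there was no peak. The 12 rows without grey are the promoters with a peak in every list, and the 5 rows wholly in grey had none.

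The first comparison of WT with STAG2-KD was of the number of peaks in the 4 windows. In replicate 1 STAG1 had 48 peaks in WT against 66 after the knockdown, and in replicate 2 68 against 79, a mean log2 change of 0.34 ± 0.17 (SD, n = 2 replicates). STAG2 had 68 and 48, then 77 and 71, a mean of -0.31 ± 0.27. CTCF had 68 and 69, then 93 and 94 (0.02 in each replicate), and SMC1A had 94 and 101, then 117 and 112 (0.02 ± 0.12). STAG1 was thus higher and STAG2 lower in both replicates, CTCF moved by 1 peak, and SMC1A went both ways. With 2 lists against 2 the smallest two-sided exact permutation p is 0.333, and the p values were 0.667, 0.667, 0.667 and 1.0 (adjusted over the 4 antibodies by Benjamini-Hochberg, 0.889 for the first 3 and 1.0). The whole STAG1 and STAG2 lists changed length in the same directions, from 63535 to 85621 and from 98453 to 104663 peaks for STAG1 and from 79115 to 58521 and from 119021 to 106203 for STAG2. In replicate 2 the CTCF list shortened, from 122341 to 115487, and the SMC1A list lengthened, from 148396 to 150308, against the direction of their HOX counts. When every list was cut to its strongest 58521 peaks, the change in the HOX windows was -0.07 for both STAG1 and STAG2.

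By cluster, SMC1A went from 15 to 20 and from 21 to 24 peaks in HOXA, and from 29 to 34 and from 29 to 35 in HOXB. In HOXC it went the other way, from 31 to 26 and from 48 to 35, and in HOXD from 19 to 21 and from 19 to 18. The log2 change was 0.30 ± 0.16 in HOXA, 0.25 ± 0.03 in HOXB, -0.35 ± 0.14 in HOXC and 0.03 ± 0.16 in HOXD (SD, n = 2), and the difference between clusters was not tested. With lists of equal length the means were 0.13, -0.06, -0.12 and -0.14. STAG1 was higher in STAG2-KD in every cluster and replicate, by 0.07 to 0.64 on the log2 scale. STAG2 was lower in every cluster and replicate except HOXB in replicate 2, where it went from 22 to 23 peaks.

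**Figure D4:**
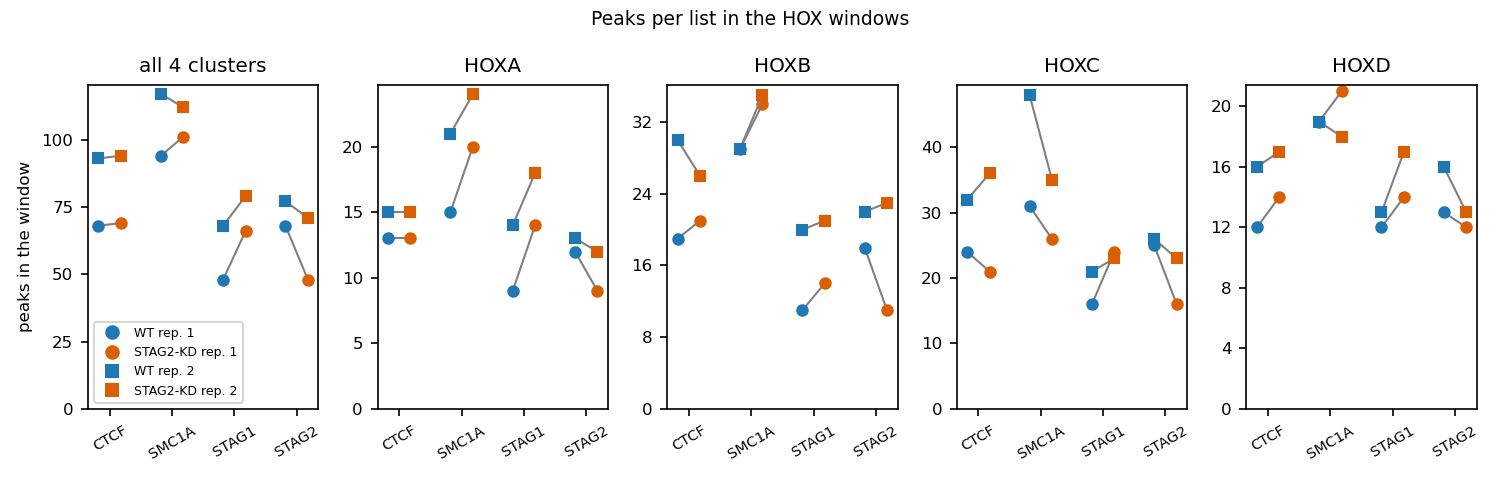
Peaks in the 4 HOX windows together and in each cluster, for each antibody (x axis) and list. Circles are replicate 1 and squares replicate 2, blue is WT and orange STAG2-KD, and lines join the lists of a replicate. STAG1 rises from 48 to 66 and from 68 to 79 in the 4 windows, and SMC1A in HOXC goes from 31 to 26 and from 48 to 35.

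A WT peak was called lost where the STAG2-KD list of the same replicate had no peak overlapping it by at least 1 bp, and a STAG2-KD peak gained in the reverse case. Such calls depend on the thresholds the authors set and do not measure the amount bound. STAG1 gained 22 of 66 HOX peaks in replicate 1 (33.3%, against 31.7% of the whole list) and 18 of 79 in replicate 2 (22.8%, against 18.6%). It lost 2 of 48 (4.17%, against 6.42%) and 6 of 68 (8.82%, against 13.6%). STAG2 lost 21 of 68 (30.9%, against 32.2%) and 11 of 77 (14.3%, against 22.1%), and gained 2 of 48 (4.17%, against 6.62%) and 5 of 71 (7.04%, against 12%). The HOX shares thus followed those of the whole lists, and all were lower except those of gained STAG1 peaks. CTCF lost 6 of 68 (8.82%, against 12.3%) and 16 of 93 (17.2%, against 16.9%), and gained 10 of 69 (14.5%, against 15.1%) and 17 of 94 (18.1%, against 12.1%). SMC1A lost 11 of 94 (11.7%, against 19.1%) and 27 of 117 (23.1%, against 25.8%), and gained 25 of 101 (24.8%, against 28.6%) and 29 of 112 (25.9%, against 29.7%). Among the clusters the lost SMC1A share in replicate 2 was 14.3% in HOXA, 10.3% in HOXB, 33.3% in HOXC and 26.3% in HOXD, whereas in replicate 1 it was 0%, 13.8%, 12.9% and 15.8%, so HOXC stood out in replicate 2 only. Lost and gained peaks were the weak ones: their median percentile was between 3.73 and 28.3 for every antibody and replicate, whereas the peaks kept had medians of 39.9 to 73.1.

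Few sites changed in both replicates, that is, had a peak in both lists of one condition and in neither of the other. STAG2 lost 4 of 55 such HOX sites (7.27%, against 4.98% of all sites) and gained 0 of 41 (against 0.734%). STAG1 gained 5 of 55 (9.09%, against 6.18%) and lost 0 of 43 (against 1.41%). CTCF lost 1 of 61 (1.64%, against 3.11%) and gained 2 of 61 (3.28%, against 1.92%), and SMC1A lost 0 of 55 (against 3.22%) and gained 3 of 63 (4.76%, against 5.70%). With counts this small the shares cannot be set apart from those of all sites, and with lists of equal length 2 lost STAG2 sites and 0 gained STAG1 sites were found.

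The 4 STAG2 sites lost in both replicates were the HOXC4 promoter (chr12:54447443-54448160), a HOXA3 promoter (chr7:27152976-27153441), a HOXA3 intron (chr7:27173151-27173493) and a HOXB3 intron (chr17:46639675-46640007). At the HOXC4 promoter STAG2 had fold enrichments of 5.20 and 4.77 in WT, and SMC1A stayed in all 4 lists with 5.89 and 4.57 in WT and 4.99 and 4.31 in STAG2-KD. In the HOXB3 intron STAG2 had 4.11 and 4.79 in WT, while CTCF was present in all 4 lists with 26.5 and 23.8 in WT and 20.9 and 17.0 in STAG2-KD. The other 2 had STAG2 at 3.24 to 4.08. All 4 were among the weaker STAG2 peaks, at percentiles of 7.65 to 27.5 (replicate 1) and 26.7 to 50.7 (replicate 2). STAG1 was gained in both replicates at 5 sites: HOXA4 (chr7:27170401-27170873), HOXA7 (chr7:27195530-27195947) and HOXD1 (chr2:177053080-177053451), all within 1 kb of a start, and introns of HOXA3 (chr7:27176810-27177202) and HOXC11 (chr12:54368289-54368626). Their fold enrichments in STAG2-KD were 3.62 and 4.05 at HOXA4, 4.66 and 3.03 at HOXA7, 4.31 and 2.30 at HOXD1, 3.03 and 2.81 in HOXA3, and 4.30 and 3.59 in HOXC11. None of the 5 overlapped a lost STAG2 site, and the ones at HOXA4 and in HOXA3 lay beside STAG1 peaks that all 4 lists had.

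CTCF was lost in both replicates 2.1 kb upstream of HOXC6 (chr12:54419949-54420310), with 4.21 and 4.99 in WT, and SMC1A was gained over the same bases (chr12:54419893-54420188), with 4.23 and 3.63 in STAG2-KD. This was the only place in the clusters where a site of one antibody lost in both replicates overlapped a site of another gained in both. CTCF was gained between HOXA7 and HOXA9 (chr7:27198850-27199167; 4.59 and 4.56) and at the HOXD11 promoter (chr2:176971666-176972052; 5.34 and 4.46). SMC1A was gained in a HOXB2 exon (chr17:46618504-46618705; 3.85 and 2.81) and a HOXD13 intron (chr2:176959025-176959389; 4.43 and 3.12). All of these were weak, with a percentile of at most 44.9.

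At sites with a peak in all 4 lists of an antibody, strength was compared by percentile. STAG1 ranked higher in STAG2-KD in both replicates at 28 of 42 HOX sites (66.7%, against 50.6% of all such sites) and lower at 6 (14.3%, against 15.3%). STAG2 ranked lower at 21 of 40 (52.5%, against 52.8%) and higher at 6 (15.0%, against 16.6%). CTCF ranked higher at 14 of 56 (25.0%, against 31.6%) and lower at 19 (33.9%, against 36%), and SMC1A higher at 22 of 51 (43.1%, against 37.7%) and lower at 13 (25.5%, against 29.5%). Rank in a list depends on how many weak peaks the list holds, and with equal list lengths STAG1 ranked higher at 15 of 38 sites and lower at 11 (against 34.0% and 32.1% of all sites), and STAG2 higher at 14 of 36 and lower at 13 (against 32.6% and 35.4%). Within HOXA, STAG1 in the full lists ranked higher at 7 of 8 sites and lower at none, against 5 of 9 higher in HOXB, 9 of 14 in HOXC and 7 of 11 in HOXD. STAG2 ranked lower at 8 of 10 in HOXD, against 2 of 8 in HOXA, 6 of 10 in HOXB and 5 of 12 in HOXC. Ranks by cluster were not counted with equal list lengths.

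The fold enrichment itself was at least 2 times higher in STAG2-KD in both replicates at 4 of 51 SMC1A sites (against 1.90% of all SMC1A sites), and all 4 were among the 9 in HOXA. They were singled out after their values were seen, and no test was run on them. In a HOXA3 intron (chr7:27175886-27177304) SMC1A had 4.12 and 4.15 in WT and 11.7 and 11.7 in STAG2-KD. At the start of HOXA5 (chr7:27183107-27183914), where the motif printed above lies, it had 6.43 and 6.17 in WT and 15.3 and 14.5 in STAG2-KD. The SMC1A percentiles in the HOXA3 intron were 12.3 and 58.1 in WT and 68.4 and 82.8 in STAG2-KD. At the HOXA5 start they were 48.8 and 73.2 in WT and 74.5 and 86.4 in STAG2-KD. In the body of HOXA13 (chr7:27235402-27237319) the fold enrichments were 11.8 and 13.6 in WT and 27.3 and 32.6 in STAG2-KD. Over its start (chr7:27238128-27241386) they were 10.5 and 9.86, then 22.8 and 22.3. The ratio of STAG2-KD to WT was between 2.17 and 2.84 at all 4, against a median of 1.15 and 1.17 over all SMC1A sites in the 4 lists. The remaining 5 HOXA sites, at HOXA7, between HOXA7 and HOXA9, at HOXA6, at HOXA4 and beyond HOXA2, had ratios of 0.782 to 1.49. SMC1A was at least 2 times lower in both replicates at 0 of 51 sites (against 0.138%).

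In the gene body of HOXA13 the fold enrichment of the other antibodies was also higher in STAG2-KD in both replicates. In the gene body (chr7:27235337-27236784) STAG1 had 37.7 and 18.3 in WT and 76.3 and 42.9 in STAG2-KD, which put it at percentiles of 99.3 and 99.8. STAG2, the knocked-down protein, had 36.6 and 18.5 in WT and 50.8 and 33.5 in STAG2-KD, whereas its median ratio over all sites was 0.757 and 0.904. CTCF in the gene body had 54.5 and 26.5 in WT and 58.3 and 41.7 in STAG2-KD, a small rise in replicate 1. Over the HOXA13 start CTCF had 6.33 and 5.79 in WT and 12.8 and 12.4 in STAG2-KD. STAG2 over the start went both ways, at percentiles of 44.9 and 60.8 in WT and 40.1 and 69.4 in STAG2-KD. The HOXA5 start did not show rises in both replicates. STAG1 had 17.1 and 15.8 in WT and 26.7 and 14.1 in STAG2-KD there. CTCF had 36.4 and 27.0, then 31.2 and 32.5, so that for both antibodies the replicates went opposite ways. In the HOXA3 intron CTCF had 13.6 and 13.4 in WT and 21.1 and 18.8 in STAG2-KD, STAG1 7.89 and 7.24, then 8.28 and 9.06, and STAG2 9.29 and 9.15, then 6.96 and 9.11. Over all 4 clusters the fold enrichment was at least 2 times higher in both replicates at 1 of 42 STAG1 sites (against 1.03%) and 1 of 56 CTCF sites (against 0.472%), both at HOXA13, and at 0 of 40 STAG2 sites (against 0.496%). It was at least 2 times lower in both at 0 sites of STAG1 (against 0.140%), STAG2 (against 2.10%) and CTCF (against 0.488%).

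Fold enrichment is the pileup of fragments at a peak's summit over a local background, with 1 added to each, and both were read back from the fold enrichment and p-value of the peak. At HOXA13 the background itself differed. In the gene body the STAG1 pileup was 187 and 200 in WT and 229 and 212 in STAG2-KD, on a background of 4.00 and 10.0 in WT and 2.02 and 3.97 in STAG2-KD. The STAG2 pileup was 182 and 184 in WT and 153 and 166 in STAG2-KD, lower after the knockdown in both replicates while its fold enrichment was higher. The SMC1A pileup was 39 and 75 in WT and 77 and 126 in STAG2-KD there, with the background at 0.782 and 0.631 times its WT level. Its pileup ratio was therefore 1.97 and 1.68, and over the HOXA13 start 2.17 and 1.78. At the other 2 sites the pileup ratio stayed above 2 in both replicates. In the HOXA3 intron the SMC1A pileup was 11 and 20 in WT and 30 and 54 in STAG2-KD, and at the HOXA5 start 13 and 25, then 36 and 53. The HOXD13 promoter (chr2:176957345-176958830) also passed by pileup, with 12 and 25 in WT and 32 and 54 in STAG2-KD, where the fold enrichment was 5.44 and 6.30 in WT and 14.5 and 10.3 in STAG2-KD. Thus 3 of 51 HOX sites had an SMC1A pileup at least 2 times higher in both replicates, against 1.15% of 1394 SMC1A sites sampled from the genome, whose median pileup ratio was 1.23 and 1.2. Falls in fold enrichment were also not always falls in pileup. Of the 56 CTCF sites 19 had a lower fold enrichment in STAG2-KD in both replicates, and of these 8 had a lower pileup in both, 6 had a pileup at least as high in both, and 16 had a higher background in both. For STAG2 the numbers were 21 of 40 sites with a lower fold enrichment, 13 with a lower pileup, 2 with one at least as high and 14 with a higher background. These CTCF and STAG2 counts were not made over all sites of the genome, so they do not show whether HOX sites differ from others. Pileups are not scaled for depth, and the lists do not give it.

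**Figure D5:**
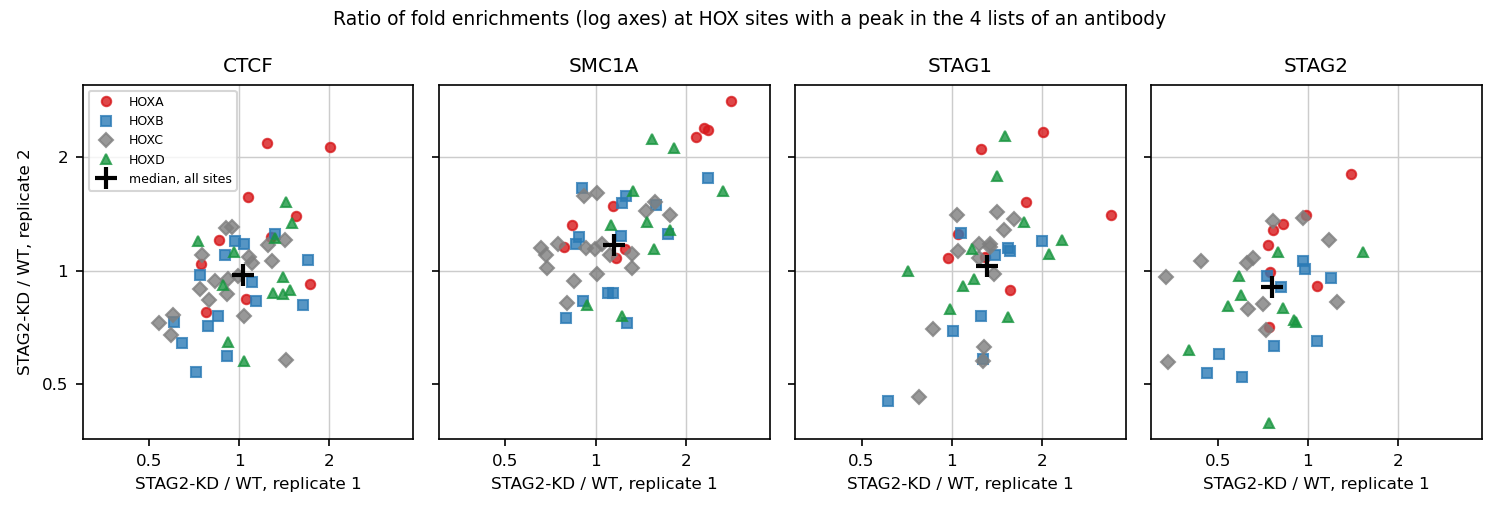
Ratio of the fold enrichment in STAG2-KD to that in WT in replicate 1 (x axis) and replicate 2 (y axis, both on log scales) at every HOX site with a peak in all 4 lists of an antibody. Each point is a site, coloured and shaped by cluster, and the cross is the median of all sites in the genome. In the SMC1A panel 4 HOXA sites lie beyond 2 on both axes, and no site of another cluster does.

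After division by the median ratio of all sites, 3 of the 4 HOXA sites still reached a fold enrichment ratio of 2 in both replicates, against 0.61% of all SMC1A sites. With a ratio of 1.5, 9 of 51 HOX sites passed (against 11.2% of all sites), 4 in HOXA, 3 in HOXD and 1 each in HOXB and HOXC.

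Genes that work with or beside HOX genes were counted by their promoters. The TALE homeodomain cofactors of HOX proteins (PBX, MEIS and PKNOX genes) had a peak in at least 1 list at 8 of 9 promoters (88.9%, against 80% of all genes) and in all 16 lists at 6 (66.7%, against 33.0%). With only the MANE Select start of each, 2 of the 9 had a peak in all 16 lists, and no share over all genes was counted for that start. EVX1 and EVX2, homeobox genes beside HOXA and HOXD, had none in all 16 lists, and EVX1 alone had SMC1A in the 2 lists of replicate 2. The clustered protocadherin region, another long array of related genes with many CTCF sites, had 54 to 70 STAG1 peaks, 50 to 70 STAG2 peaks, 67 to 71 CTCF peaks and 36 to 63 SMC1A peaks in its 746.8 kb. SMC1A therefore had fewer peaks than CTCF there in every list pair, while in the HOX windows it had more. Over the whole lists SMC1A also had more than CTCF in STAG2-KD of replicate 1 (91582 against 88726) and in both conditions of replicate 2. In that replicate it had 148396 against 122341 in WT and 150308 against 115487 in STAG2-KD. In WT of replicate 1 it had fewer (82287 against 86389).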

How the data were processed

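ChIP-seq of M14 cells for STAG1, STAG2, CTCF and SMC1A was deposited as 16 MACS2 peak lists, 1 per library, in hg19 coordinates. Input samples have no list and were not analysed here. The authors aligned reads (Bowtie2 and, in the processing notes of replicate 2, BWA) and called peaks with MACS2, at a −log10 q of 2 in replicate 1 and a −log10 p of 2 in replicate 2. The deposited columns are a score (10 times the −log10 q or −log10 p), the fold enrichment (a linear ratio over local background), −log10 p and −log10 q, and a summit offset. Replicate 1 was size selected on beads and replicate 2 on gels, so a replicate number marks a shared batch.

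Peaks on the main chromosomes were intersected with windows and promoters from GENCODE (hg19) in Python 3.11.15 with pandas 2.3.3, numpy 2.4.6 and scipy 1.17.1. Sequence was read with pysam 0.24.0 and samtools 1.23.1, and figures were drawn with matplotlib 3.10.9. Peaks overlapping by at least 1 bp were merged into sites. Conditions were compared within replicates and by exact permutation of 2 lists against 2. The motif matrix came from 1998 sequences among the 5000 strongest CTCF summits of the WT list of replicate 2 outside the windows, with a 5% pseudocount and a search within 50 bp of the summit. Overlaps, calls of lost and gained sites, the motif search and the recovery of the background were tested on simulated data. The other steps, among them the recovery of pileups, were not. Alternatives were a common q threshold, a stricter q threshold, lists of equal length, other windows, overlaps and motif settings, and each replicate left out. The 38 HOX genes were all counted, though not each is named. The text names all sites changed in both replicates but only part of the CTCF sites in all 4 lists, so the order it gives is not complete. Members, lists and rules were chosen with earlier results of these data known, and the 2-fold comparison after seeing its values. Summit pileup and local background were solved from fold enrichment and −log10 p under a Poisson model. Depth is unknown, since lists hold no read totals. 1 gene of the rule is not reported here.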

Additional observations from a re-analysis of the deposited data

Results flagged for a closer look

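In the 4 HOX windows STAG1 peaks rose and STAG2 peaks fell in both replicates, and the difference of the mean log2 changes was 0.65. CTCF rose by 1 peak in both replicates, so that the change of STAG2 minus that of CTCF was -0.33. SMC1A had more peaks in STAG2-KD in HOXA and HOXB and fewer in HOXC in both replicates, with differences of 0.66 (HOXA minus HOXC) and 0.60 (HOXB minus HOXC). These 4 results were picked out because every replicate of one group moved one way and every replicate of the other the opposite way. The differences were not tested, and the lengths of the whole STAG1 and STAG2 lists moved in the same directions as their HOX counts. The whole SMC1A list was longer in STAG2-KD in both replicates, the opposite of its change in HOXC, and the whole CTCF list was shorter in STAG2-KD in replicate 2. With lists of equal length SMC1A changed by 0.26 and 0.0 in HOXA and by 0.08 and -0.21 in HOXB (log2, replicates 1 and 2). In HOXC it changed by -0.32 and 0.08, so in none of these clusters did the direction hold in both replicates. Mean changes in the 4 windows were then -0.07 for STAG1 and STAG2. At a −log10 q of 5 HOXC had 23 SMC1A peaks in both conditions of replicate 2, while HOXA and HOXB kept their direction. At a −log10 q of 2 all these directions held.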

How the results depend on the processing

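Over 39 results and 205 alternatives, 9 values changed direction, 44 moved by more than the spread between replicates or, for counts, by over 1.5 times, and 152 did neither, although log2 changes with a permutation test were judged by direction and call alone; the causes were not tested unless stated. With every list cut to 58521 peaks, which leaves fewer weak peaks by construction, the log2 change of peak number was -0.07 for STAG1, -0.07 for STAG2 (from -0.31), -0.02 for CTCF and -0.07 for SMC1A, and -0.06 and -0.14 for SMC1A in HOXB and HOXD. Mean gained shares were then 5.93% (STAG1), 7.74% (STAG2), 4.24% (CTCF) and 6.25% (SMC1A), and the lost CTCF share 5.3%. Sites changed in both replicates numbered 1 lost and 0 gained for STAG1, 2 lost and 1 gained for STAG2, 1 gained for CTCF, and 2 lost and 0 gained for SMC1A. STAG1 ranked higher at 15 sites and lower at 11, STAG2 higher at 14 and lower at 13, 58 sites remained in all, and 13 HOX promoters had no peak (9 at a −log10 q of 5, against 5). At a −log10 q of 5 there were 78 sites, the STAG1 shares were 2.27% lost and 20.5% gained, the gained shares 10.6% (CTCF) and 16.3% (SMC1A), and sites changed in both replicates 2 lost for STAG2, 0 lost and 1 gained for CTCF and 1 lost for SMC1A. At a −log10 q of 2 they were 1 lost for STAG1, and 1 lost and 5 gained for SMC1A. Without a flank the log2 change was -0.01 for CTCF and -0.01 for SMC1A, and with a flank of 50 kb -0.01 for CTCF, with 2 CTCF sites lost in both replicates and an SMC1A gained share of 24.5%. An overlap of 50% gave gained shares of 8.05% (STAG2) and 29.1% (SMC1A). Ranking by −log10 p gave 2 STAG1 sites lower. The motif matched 5 CTCF sites by the core consensus and 33 with a threshold exceeded by 5% of windows. With a ratio of 1.5, 9 SMC1A sites passed. Leaving out each replicate gave log2 changes of -0.06 to 0.10 for SMC1A, whose direction rests on replicate 1. The alternatives on ranking, the rebuilt matrix, clusters and ratios were chosen after seeing the data.

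With the replicate block (an exact sign flip of 2 paired ratios, smallest p 0.5) the log2 changes of STAG1 (0.34), STAG2 (-0.31), CTCF (0.02) and SMC1A (0.02) had p values of 0.5, 0.5, 0.5 and 1.0, and no call changed. Read depth is unknown, so a peak missing from a list is not shown to be absent.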
